A study of Homo sapiens with 36 samples.

Results

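Distal enhancers called in BEAS-2B (B2B), an immortalized but non-cancerous human bronchial epithelial line, and not in A549, a human lung adenocarcinoma line, were examined in chromatin immunoprecipitation sequencing (ChIP-seq) peak lists of both lines. Members were chosen on measured peaks: a B2B peak of H3K27ac on chromosomes 1 to 12 that overlapped a B2B Med1 peak by at least 1 bp, lay more than 1 kb from every annotated start site, carried no B2B H3K4me3 peak and was met by no A549 peak of H3K27ac or Med1. Of 24654 B2B H3K27ac peaks on these chromosomes, 10945 lay beyond 1 kb of a start site, 9925 of those had no H3K4me3 and 2332 of these overlapped Med1. The 1007 members were 43.2% of those 2332 distal enhancers. Of the rest, 615 overlapped A549 peaks of both H3K27ac and Med1 (called shared enhancers here), 702 overlapped A549 H3K27ac alone and 8 overlapped A549 Med1 alone. The same rule with the lines exchanged gave 630 A549-only distal enhancers, 53.3% of the distal A549 enhancers, which serve as the mirror set.

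The study profiled untreated cells of both lines with 2 replicates per target and line, and the lists hold the peaks of the merged replicates, so no replicate spread could be given. RNA polymerase II (pol II), H3K4me3, H3K27ac, Med1 and the Jun-family proteins JunB, Jun and JunD were listed in both lines, whereas the CTCF and Rad21 lists used here are of B2B. Each line is a single culture-adapted model of its cell type. In B2B, 4 of 5 airway epithelial markers (EPCAM, CDH1, KRT8, KRT18 and KRT19) had pol II and H3K4me3 promoter peaks, all but KRT19, and the counts were the same in A549. Of the basal markers, 3 of 6 had H3K4me3 in B2B and 1 of 6, KRT17, had pol II. In A549, 3 of 6 had H3K4me3 and 3 of 6, TP63, ITGB4 and ITGA6, had pol II. KRT5 and KRT14 had neither mark in either line. Of the mesenchymal markers (VIM, FN1, CDH2, ZEB1, COL1A1 and COL1A2), 5 of 6 had pol II and 5 of 6 had H3K4me3 in each line. Of the blood cell markers, PTPRC and CD3E had no promoter peak in either line, and CD68 had pol II in both lines and H3K4me3 in neither.

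Enhancers are stretches of DNA away from gene starts that bind transcription factors and act on promoters. Active ones carry acetylated histone H3 (H3K27ac) on the nucleosomes beside the bound site and recruit Mediator, of which Med1 is a subunit that contacts transcription factors and pol II. JunB, Jun and JunD are bZIP proteins that pair with each other or with Fos proteins to form AP-1, which binds the letters TGACTCA, and AP-1 often shares enhancers with TEAD factors, the DNA-binding partners of YAP and TAZ. CTCF binds a long motif and, with the cohesin subunit Rad21, holds chromatin loops and boundaries.

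Below are 201-base stretches of hg38, plus strand, centred on a summit, the base of highest signal in a peak. The first 3 are the members with the highest summed B2B fold enrichment of JunB, Jun and JunD among those met by all 3 proteins, centred on the strongest Jun summit, with AP-1 letters (TGACTCA on either strand) in capitals.
CREB3L2 member, chr7:137978582-137978782: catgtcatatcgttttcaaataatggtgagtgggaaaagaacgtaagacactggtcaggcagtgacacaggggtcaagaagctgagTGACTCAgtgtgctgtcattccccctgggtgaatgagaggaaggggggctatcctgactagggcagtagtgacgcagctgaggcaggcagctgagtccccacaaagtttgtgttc
CDKN2B member, in CDKN2B-AS1, chr9:22103381-22103581: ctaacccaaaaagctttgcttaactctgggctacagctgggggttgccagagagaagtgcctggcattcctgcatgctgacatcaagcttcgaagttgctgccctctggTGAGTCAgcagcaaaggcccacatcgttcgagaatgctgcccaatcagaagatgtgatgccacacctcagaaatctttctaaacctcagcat
MPV17 member, chr2:27321161-27321361: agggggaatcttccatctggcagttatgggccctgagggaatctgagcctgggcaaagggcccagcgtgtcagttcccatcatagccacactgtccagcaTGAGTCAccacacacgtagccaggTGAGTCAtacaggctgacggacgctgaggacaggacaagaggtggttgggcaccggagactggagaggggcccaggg
The AP-1 letters began 14 bases before the Jun summit in the CREB3L2 stretch and 9 bases after it in the CDKN2B stretch. MPV17, which encodes a mitochondrial inner membrane protein, had 2 copies, at the summit and 24 bases on. The next stretches are those of highest H3K27ac among members with no Jun-family peak in either line, centred on the Med1 summit, and are shown for contrast because they held no match to the AP-1, TEAD (GGAATG) or RUNX (TGTGGT) letters. Capitals mark AP-1 letters alone: the CREB3L2 and CDKN2B stretches also hold TEAD letters and the MPV17 stretch RUNX letters, on the other strand, which are not marked.
FRMD4A member, chr10:14405877-14406077: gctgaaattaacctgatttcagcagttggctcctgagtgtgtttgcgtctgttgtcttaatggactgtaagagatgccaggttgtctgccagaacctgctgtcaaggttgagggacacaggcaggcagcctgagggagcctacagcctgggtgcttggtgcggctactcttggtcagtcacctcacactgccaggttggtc
PRR16 member, chr5:120605934-120606134: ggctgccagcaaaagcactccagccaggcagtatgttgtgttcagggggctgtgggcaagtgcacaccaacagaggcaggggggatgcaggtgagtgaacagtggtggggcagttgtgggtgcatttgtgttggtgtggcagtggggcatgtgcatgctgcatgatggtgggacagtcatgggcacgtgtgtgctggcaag

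The values that chose the members are given as a description only. Members were short, with a median length of 377 bp (196 to 3517 bp). Their H3K27ac fold enrichment over the local background of the peak caller ran from 2.31 to 37.6 with a median of 6.87, against 5.60 over the whole B2B H3K27ac list. Their strongest Med1 peak had a median fold enrichment of 6.36, close to the list median of 6.32. The members nearest the 1 kb limit lay 1003, 1009 and 1011 bp from a start site, and the nearest peaks left out by it lay at 994, 992 and 981 bp, among 210 peaks that met every other condition. Absence from A549 was often local: 302 members had an A549 H3K27ac peak within 5 kb and 103 within 1 kb, the smallest gap being 11 bp. The median gap was 12.5 kb to the nearest A549 H3K27ac peak and 36.1 kb to the nearest A549 Med1 peak. Neighbouring members were not independent, since the 1007 members overlapped 968 Med1 peaks and 154 members shared a Med1 peak with another member.

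Jun met most of the members in B2B and few of them in A549. A B2B Jun peak overlapped 644 of 1007 members (64.0%, Wilson 95% interval 60.9 to 66.9%), against 25.8% of all distal B2B H3K27ac peaks, taken with or without Med1. An A549 Jun peak overlapped 89 members (8.84%, 7.24 to 10.8%), against 13.3% of the same distal peaks. Among the 2332 distal B2B enhancers, which all overlap Med1, B2B Jun was at 61.2% and A549 Jun at 33.7%. The paired difference, A549 minus B2B, was -55.1 percentage points (Newcombe interval -58.1 to -51.9). These intervals, here and below, cover counting error only. Members were chosen for B2B H3K27ac and Med1 and for their absence in A549, so the difference is not independent of the rule.

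JunB and JunD followed with smaller shares. JunB met 203 members in B2B (20.2%) and 70 in A549 (6.95%), where the shares of all distal B2B H3K27ac peaks were 7.44% and 13.3%. JunD met 71 members in B2B (7.05%) and 3 in A549 (0.298%), against 2.75% and 3.54%. Among the 2332 distal B2B enhancers with Med1, JunB was at 24.2% in B2B and 33.6% in A549, and JunD at 9.99% and 11.4%. The paired differences, A549 minus B2B, were -13.2 points for JunB (-15.7 to -10.8) and -6.75 points for JunD (-8.50 to -5.27). At the 615 shared enhancers the differences had the other sign, +37.4 points for JunB (33.3 to 41.2), +7.15 for Jun (3.90 to 10.4) and +20.8 for JunD (16.9 to 24.7). Shared enhancers were chosen for A549 H3K27ac and Med1 peaks and members for their absence, so the opposite signs are not independent of the rule. With an overlap of at least 50% of the shorter interval the differences at members were -35.0 points for Jun, -8.24 for JunB and -2.75 for JunD.

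The 3 proteins were nested in B2B. Every one of the 203 JunB members and of the 71 JunD members also had a Jun peak. Jun alone met 434 members (43.1%), JunB with Jun 139 (13.8%), Jun with JunD 7 (0.695%), all 3 proteins 64 (6.36%) and none of them 363 (36.0%). No member had JunB or JunD without Jun. The members with a Jun peak in A549 were nested in those of B2B as well, as all 89 also had a B2B Jun peak, while 555 members had Jun in B2B alone. Where Jun was called in both lines, the A549 and B2B summits lay a median of 20 bp apart, and 89.9% lay within 100 bp. For JunB, 51 members were met in both lines, 152 in B2B alone and 19 in A549 alone.

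**Figure D1:**
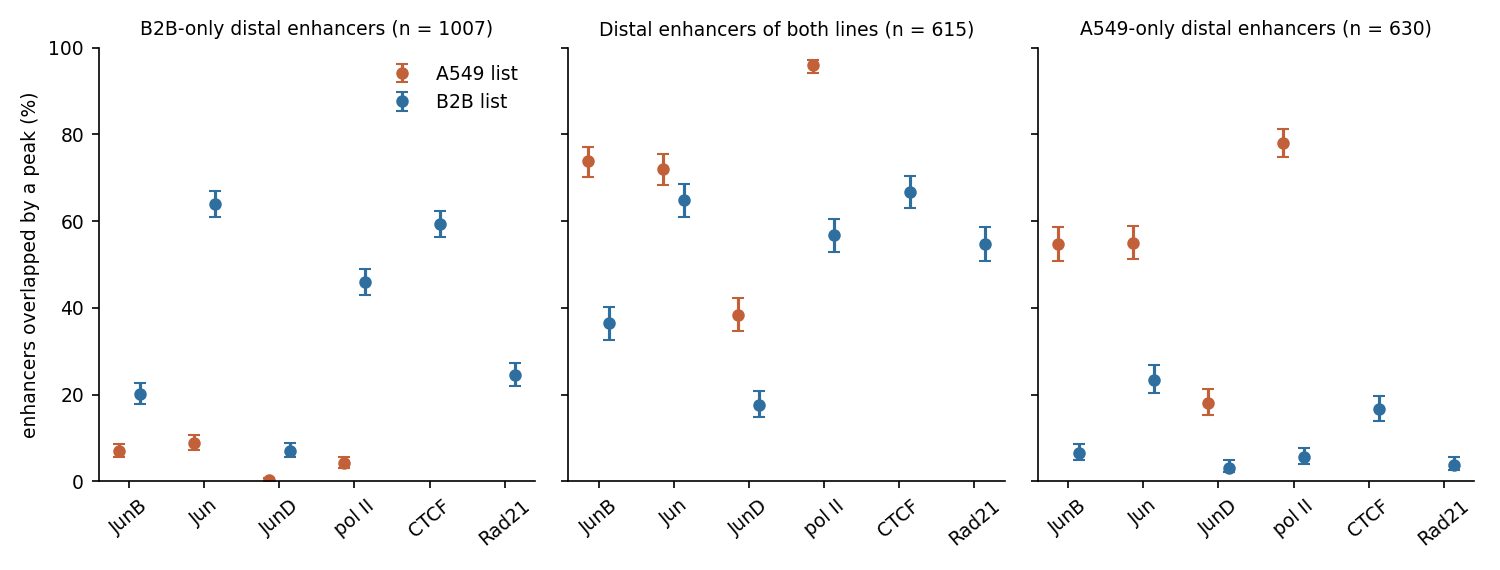
Share of distal enhancers (percent, y axis) overlapped by a peak of each target (x axis) in the A549 list (orange) and the B2B list (blue), for B2B-only, shared and A549-only enhancers; bars are Wilson 95% intervals. Jun meets 64.0% of the B2B-only enhancers in B2B and 8.84% in A549.

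Compared with shared enhancers, the members had less JunB and JunD in B2B. JunB met 36.4% of shared enhancers in B2B, and the difference, members minus shared, was -16.3 points (Newcombe interval -20.8 to -11.7). JunD met 17.6% of shared enhancers, and the difference was -10.5 points (-14.02 to -7.21). Low shares were not particular to members. The 702 distal B2B enhancers with A549 H3K27ac alone had B2B JunB at 18.9% and JunD at 7.12%, against 20.2% and 7.05% of members. Jun met 64.9% of shared enhancers, which differed from the members by -0.93 points (-5.67 to 3.90), and the sign depended on the setting: the difference was -11.1 points when an overlap had to cover 50% of the shorter interval and +5.51 points in windows of 250 bp on each side of the Med1 summit. Members were also shorter than shared enhancers, which had a median length of 500 bp. In the equal windows, which set length aside, JunB differed by -12.3 points (-17.1 to -7.58) and JunD by -10.5 points (-14.7 to -6.50). With an overlap of at least 50% of the shorter interval the differences were -9.32 points for JunB (-13.9 to -5.01) and -5.50 points for JunD (-8.65 to -2.84).

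Against the A549-only enhancers, each set scored in its own line, members had more Jun (64.0% against 55.1%, 8.87 points, 3.99 to 13.7), less JunB (20.2% against 54.8%, -34.6 points, -39.1 to -29.9) and less JunD (7.05% against 18.1%, -11.0 points, -14.5 to -7.73). The lists differ in length: on chromosomes 1 to 12 the B2B lists held 6318 JunB, 32978 Jun and 6206 JunD peaks, and the A549 lists 19926, 24939 and 6438. When the lists of each target were cut to equal length, JunB differed by -15.6 points (-20.04 to -11.1), JunD by -10.7 points (-14.2 to -7.44) and Jun by 5.10 points (0.19 to 10.01). With an overlap of at least 50% of the shorter interval JunB differed by -22.5 points and JunD by -5.56 points, and in windows of 250 bp on each side of the Med1 summit Jun differed by 5.53 points and JunD by -18.7 points. In the line where the enhancer was not called, Jun met 8.84% of members (A549 list) and 23.5% of A549-only enhancers (B2B list), a difference of -14.7 points (-18.5 to -11.0) that was -11.5 points with lists of equal length. JunB showed no such gap, with 6.95% and 6.51%, a difference of 0.44 points (-2.17 to 2.86), and JunD met 0.298% and 3.17%, a difference of -2.88 points (-4.57 to -1.63). These comparisons in the other line were added after the data were seen.

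Where a Jun peak was present its strength was similar in members and in shared enhancers of B2B. The median B2B Jun fold enrichment was 14.2 at members (2.31 to 81.5) and 14.5 at shared enhancers, against 8.78 over the whole list. B2B JunB had medians of 6.01 and 6.16, and JunD of 5.82 and 5.95. In A549 the contrast was larger: the 89 A549 Jun peaks at members had a median of 10.8, and those at 443 shared enhancers one of 25.5. Members were chosen to lack A549 H3K27ac and Med1 peaks and shared enhancers to have them. The A549 contrast is therefore not independent of the rule. The members with a stronger B2B Jun peak more often carried the other proteins. When the 644 were divided into 3 equal-sized groups by Jun fold enrichment, JunB met 6.51%, 32.6% and 55.6% of them from the weakest to the strongest, JunD none, 5.12% and 28.0%, and A549 Jun 5.58%, 8.84% and 27.1%.

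**Figure D2:**
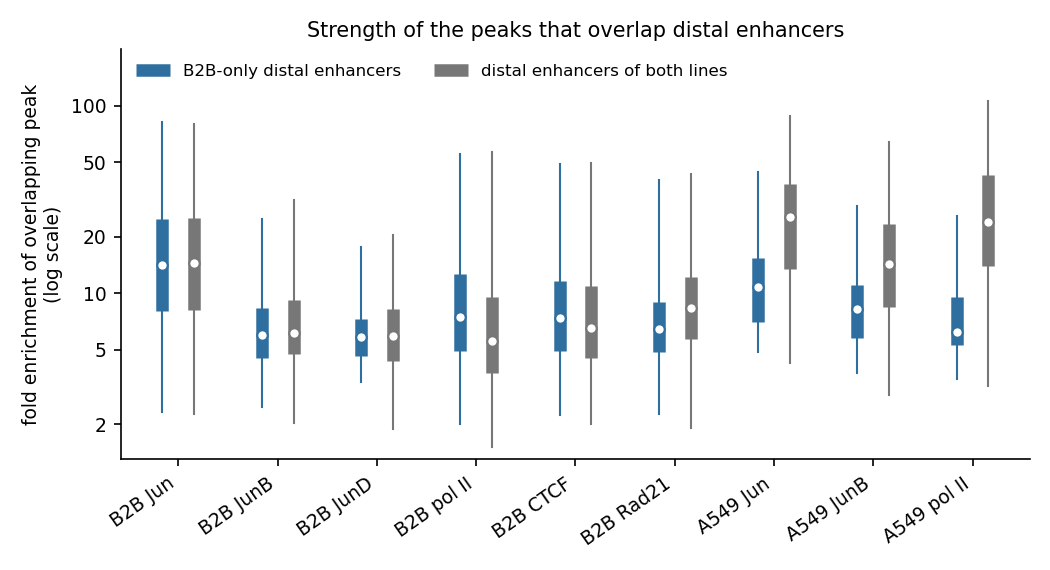
Fold enrichment (y axis, log scale) of the strongest overlapping peak of each list (x axis) at B2B-only enhancers (blue) and shared enhancers (grey); circles are medians, thick bars the middle 50%, thin lines the range. The B2B Jun medians are 14.2 and 14.5, whereas the A549 Jun medians are 10.8 and 25.5, a contrast not independent of the rule.

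Pol II was called at 463 members in B2B (46.0%, 42.9 to 49.1%) and at 42 in A549 (4.17%, 3.10 to 5.59%), against 15.3% and 19.9% of all distal B2B H3K27ac peaks. Those peaks were taken with or without Med1. Among the 2332 distal B2B enhancers, which all overlap Med1, B2B pol II was at 46.3% and A549 pol II at 42.0%. Shared enhancers had B2B pol II at 56.7%, and members differed from them by -10.8 points (-15.7 to -5.76). The paired difference at members, A549 minus B2B, was -41.8 points (-45.0 to -38.5). At shared enhancers it was +39.2 points (35.2 to 43.1). Both sets were chosen on A549 H3K27ac and Med1 peaks, so these signs are not independent of the rule. Of the 42 members with A549 pol II, 28 had it in B2B too. Pol II and the Jun family occurred together: 58.4% of the 644 members with a Jun-family peak in B2B had B2B pol II, and 24.0% of the 363 without, a difference of 34.4 points (28.4 to 39.98). H3K4me3, the mark of promoters, was excluded in B2B by the rule, and in A549 it met 14 members (1.39%), against 10.2% of all distal B2B H3K27ac peaks and 57.1% of the shared enhancers.

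CTCF peaks met more members than Rad21 peaks did. In B2B, CTCF overlapped 598 members (59.4%, 56.3 to 62.4%) and Rad21 overlapped 248 (24.6%, 22.1 to 27.4%), against 23.9% and 12.9% of all distal B2B H3K27ac peaks. Those peaks were taken with or without Med1. Among the 2332 distal B2B enhancers, which all overlap Med1, CTCF was at 60.3% and Rad21 at 37.6%. CTCF and Rad21 were both present at 166 members, CTCF without Rad21 at 432, Rad21 without CTCF at 82 and neither at 327. Shared enhancers had Rad21 at 54.8%, a difference, members minus shared, of -30.2 points (-34.8 to -25.4). For CTCF the difference was -7.44 points (-12.2 to -2.60), and its interval reached 0 with a stricter threshold on peaks or in equal windows. CTCF went with the Jun family: 77.8% of members with a Jun-family peak and 26.7% of those without had CTCF, a difference of 51.1 points (45.2 to 56.3). For Rad21 the same comparison gave 25.6% and 22.9%, a difference of 2.76 points (-2.85 to 8.09).

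The core CTCF motif was found at a smaller share of CTCF peaks at members than of all B2B CTCF peaks. Most peaks of the whole list had no match either. After the overlap of CTCF with members was seen, the motif was looked for on both strands within 100 bp of the CTCF summit. It was found at 25 of the 598 members with a CTCF peak (4.18%, 2.85 to 6.10%), at 45 of 411 shared enhancers with one (10.9%) and at 21.3% of the 42595 B2B CTCF peaks on chromosomes 1 to 12. It was found at 2.99% of CTCF members with a Jun-family peak and at 10.3% of those without. The CTCF peaks at members had a median fold enrichment of 7.37, below the list median of 9.01, and their summits lay a median of 73 bp from the Med1 summit.

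The summits had a regular layout. The Jun summit lay outside the bounds of the H3K27ac peak at 469 of 644 Jun members (72.8%), and the median distance between H3K27ac and Jun summits was 250 bp. Jun and Med1 summits were nearer to each other, with a median distance of 100 bp, and JunB and Med1 summits lay a median of 64 bp apart. The CDKN2B stretch printed above is one such case, as it lies just beyond its member at chr9:22103160-22103359.

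AP-1 letters were searched within 100 bp of the strongest Med1 summit. They were present at 149 of 1007 members (14.8%), at 3.97% of windows of the same length 2 kb to each side and at 7.27% of all B2B Med1 summits of chromosomes 1 to 12. Members exceeded their flanks by 10.8 points (8.56 to 13.3). Shared enhancers had the letters at 28.8% and A549-only enhancers at 27.6%, and the members differed by -13.98 points (-18.2 to -9.83) from the former and by -12.8 points (-17.0 to -8.75) from the latter. The motif was therefore concentrated at the Med1 summits of members, but less than in the other sets.

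**Figure D3:**
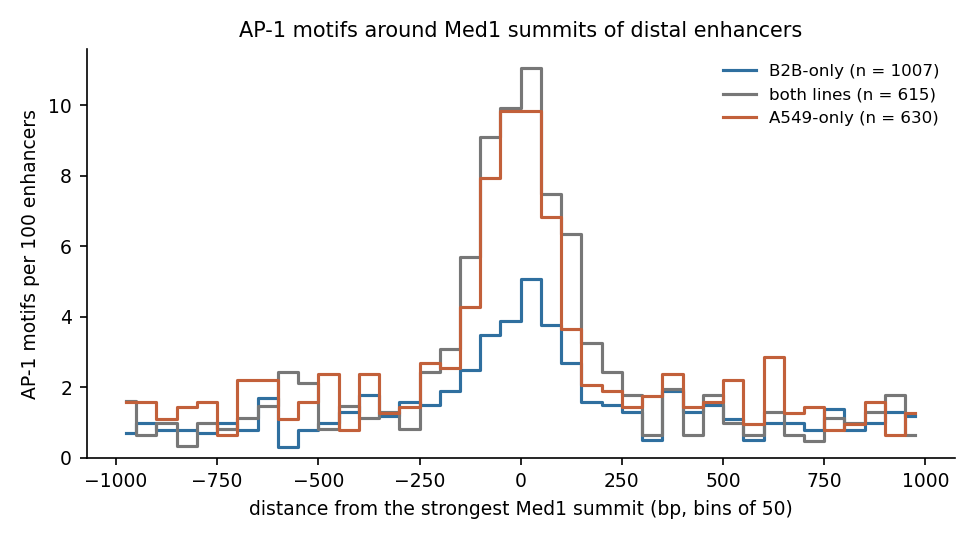
AP-1 motifs per 100 enhancers (y axis) in bins of 50 bp by distance from the strongest Med1 summit of the enhancer's own line (x axis, bp), for B2B-only (blue), shared (grey) and A549-only (orange) enhancers. All 3 sets peak at the summit, at 5.06, 11.1 and 9.84 motifs per 100 enhancers in the bin just after it.

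Within the members the motif followed the Jun-family peaks. It was present at 16.8% of the 536 members with a Jun-family peak in B2B alone, 36.1% of the 108 with one in both lines and 5.26% of the 361 with one in neither. The first exceeded the last by 11.5 points (7.47 to 15.4), and members bound in both lines exceeded those bound in B2B alone by 19.3 points (10.2 to 29.2). Among the 64 members with all 3 proteins 45.3% held it, and among the 434 with Jun but no JunB or JunD 13.4%, a difference of 31.9 points (19.8 to 44.4). Centred on the Jun summits instead, the letters were found at 32.9% of the 644 members (29.4 to 36.6%), against 44.7% of all 32978 B2B Jun peaks. At JunB summits of members the share was 50.2% and at JunD summits 64.8%, against 60.3% and 49.3% of all peaks of those lists.

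TEAD and RUNX letters were more frequent at members than at either other set. TEAD factors act downstream of the Hippo pathway, and RUNX proteins are lineage factors that often work beside AP-1. TEAD letters were present at 24.6% of members, 11.4% of their flanks and 12.6% of all B2B Med1 summits. The excess over A549-only enhancers (14.8%) was 9.87 points (5.93 to 13.6), and over shared enhancers (17.2%) 7.39 points (3.30 to 11.3). RUNX letters were present at 19.5% of members, 13.9% of flanks and 9.73% of all Med1 summits, with an excess of 5.65 points over A549-only (1.92 to 9.21) and 5.81 points over shared enhancers (2.06 to 9.38). Unlike AP-1, TEAD letters were not clearly tied to Jun: they were present at 26.7% of members with a Jun-family peak in B2B alone and 21.9% of those with none, a difference of 4.80 points (-0.99 to 10.4).

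In all, 19 motifs were compared with the A549-only enhancers, of which 4 had a higher share at members, 7 a lower one and 8 were not distinguished by their intervals. Besides TEAD and RUNX, the higher ones were SP and the MYC-type E-box. SP letters (GGGCGG) were at 13.6% of members, 7.62% of A549-only enhancers and 38.6% of all B2B Med1 summits, which include promoters. The MYC-type E-box (CACGTG) was at 5.96%, 3.33% and 5.09% in the same order.

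Besides AP-1, 6 motifs were lower at members. The NRF2 antioxidant element (TGACNNNGC) was at 10.7% of members, 22.9% of A549-only enhancers and 9.95% of all B2B Med1 summits, a difference of -12.1 points (-16.0 to -8.40) between the first pair. It begins with the first letters of the AP-1 motif, so a single site can match both. C/EBP letters (TTGCNNAA) were at 6.36%, 14.3% and 4.96%, a difference of -7.93 points (-11.2 to -4.91). FOXA letters (TGTTTAC) were at 1.69%, 6.19% and 1.64%, a difference of -4.50 points (-6.75 to -2.59). The ZEB-type E-box (CAGGTG) was at 19.2% of members and 25.2% of A549-only enhancers, with 15.4% of all Med1 summits as background. SOX letters (ACAAAG) were at 11.7% and 17.1%, with 10.1% of all Med1 summits. Glucocorticoid element letters (ACANNNTGT) were at 3.28% and 6.35%, with 4.82% of all Med1 summits.

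The 8 motifs that the intervals did not distinguish between members and A549-only enhancers were as follows. Letters bound by blood and endoderm factors of the GATA family (AGATAA) were at 4.37% of members, 5.87% of A549-only enhancers and 2.88% of all B2B Med1 summits. ETS (ACTTCCT) was at 5.96%, 5.71% and 7.11% in the same order. CRE (TGACGTCA), a site of Jun-ATF pairs, was at 0.199%, 0.159% and 1.02%. The NFI letters (TTGGCA) were at 10.9%, 12.1% and 7.87%. NF-kB letters (GGGAATTTC) were at 0.199% of members and 0.248% of all Med1 summits, and members differed from A549-only enhancers by 0.20 points (-0.42 to 0.72). SMAD letters (CAGACA) were at 17.1%, 18.7% and 10.8%. HNF1 letters (GTTAAT) were at 3.18%, 5.08% and 1.85%. IRF letters (GAAACTGAA) were at 0.497%, 0.317% and 0.27%. Against shared enhancers 2 of the 8 were distinguished, SMAD with a difference of 4.89 points (1.31 to 8.28) and CRE with one of -0.78 points (-1.92 to -0.03).

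Base composition moved with these sets. The median GC content of the windows was 55.7% at members, 51.2% at A549-only enhancers and 59.2% at shared enhancers, and SP letters, which are all G and C, were at 29.1% of shared enhancers. The part of base composition in the motif differences was not tested.

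**Figure D4:**
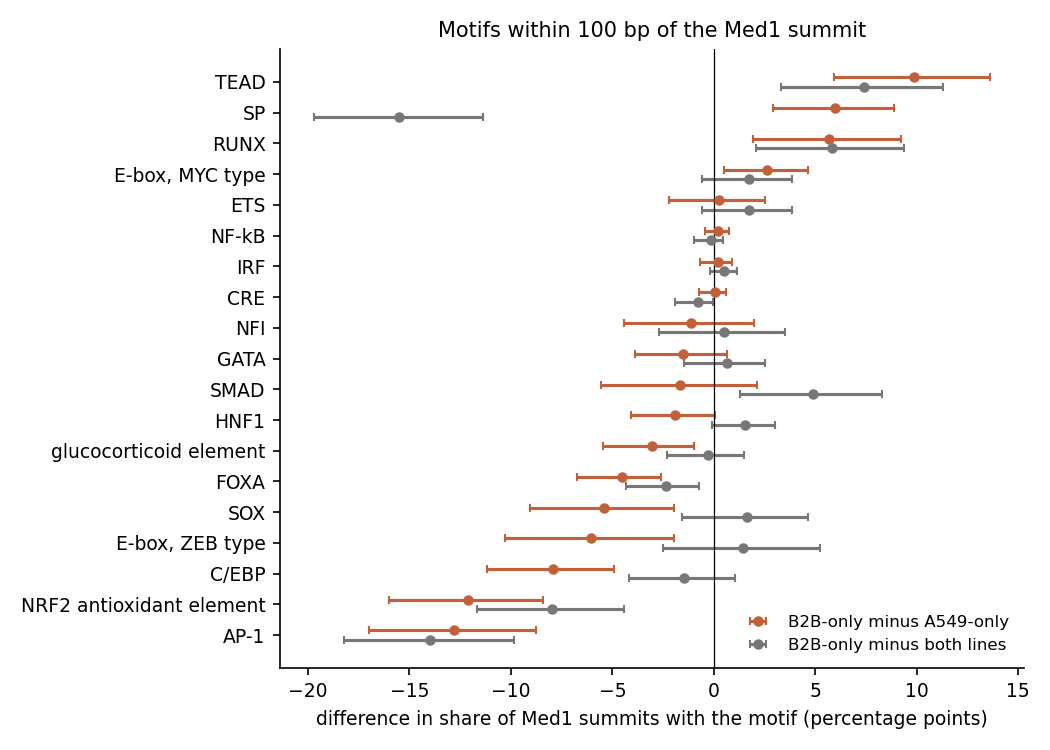
Difference in the share of Med1 summits that hold a motif (percentage points, x axis) for 19 motifs (y axis), B2B-only minus A549-only enhancers (orange) and minus shared enhancers (grey); bars are Newcombe 95% intervals. TEAD and RUNX lie to the right of 0 in both comparisons and AP-1 and the NRF2 element to the left.

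Members lay within protein-coding genes more often than shared and A549-only enhancers. The midpoint of 57.1% fell in the body of such a gene, against 45.0% of shared enhancers (12.1 points, 7.05 to 17.0) and 46.8% of A549-only enhancers (10.3 points, 5.30 to 15.2). Introns of protein-coding genes held 521 members (51.7%), exons 62 (6.16%), introns of non-coding genes 97, and 327 lay between genes. The 702 distal B2B enhancers with A549 H3K27ac alone were not lower, with 51.6% in introns of protein-coding genes and 9.97% in exons. The nearest protein-coding start was a median of 17.4 kb away, with 37.1% of members within 10 kb and 10.6% beyond 100 kb. Members made up 29.7% of the distal B2B enhancers of chromosome 10 (60 of 202, 23.8 to 36.3%) and 61.6% of those of chromosome 4 (45 of 73, 50.2 to 71.9%), the lowest and the highest of the 12 chromosomes.

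Some members lay close together. When neighbours up to 12.5 kb apart were joined, 425 members (42.2%) fell into 177 groups, 47 of them with 3 or more. No share of other distal enhancers is given beside this, so grouping is not shown to be particular to members. The largest held 8 members over 44.9 kb and the next held 7 members over 23.2 kb downstream of AMOTL2.

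The members were nearest to 625 protein-coding genes, 4.97% of the 12573 on these chromosomes, and 89 genes had 3 or more. Nearness does not show that an enhancer acts on the gene. The genes with most members encode several proteins of the cell cortex and matrix. AMOTL2, which encodes an angiomotin that binds YAP, and NDST1, an enzyme of heparan sulfate synthesis, had 8 each. COL5A1, a collagen V chain, and AFAP1, an actin-binding adaptor, had 7 each. DLG1 and FRMD4A, scaffold proteins of cell polarity, and MEGF6, a protein with EGF-like repeats, had 6 each. No A549-only enhancer was nearest to any of these genes, whereas shared enhancers were nearest to AMOTL2 (4) and AFAP1 (1). A549-only enhancers were nearest to 3.32% of all protein-coding genes and to 40 of the 625 genes. Their absence at these few genes is therefore not set apart from the background.

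These genes differed in how much Jun their members carried. All 6 DLG1 members and 7 of 8 NDST1 members had B2B Jun, as had 5 of 7 at COL5A1 and 4 of 6 at FRMD4A. Jun met 3 of 8 members at AMOTL2, 2 of 7 at AFAP1 and 1 of 6 at MEGF6. Among the members at these genes, A549 Jun-family peaks were limited to 2 at COL5A1 and 1 at AFAP1. Pol II was called in B2B at 5 of 6 FRMD4A members and at none of the MEGF6 members. At the promoters, pol II was called in A549 alone for NDST1, in B2B alone for COL5A1 and in both lines for AMOTL2, AFAP1, DLG1, FRMD4A and MEGF6, and H3K4me3 was called in both lines for all of them.

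**Figure D5:**
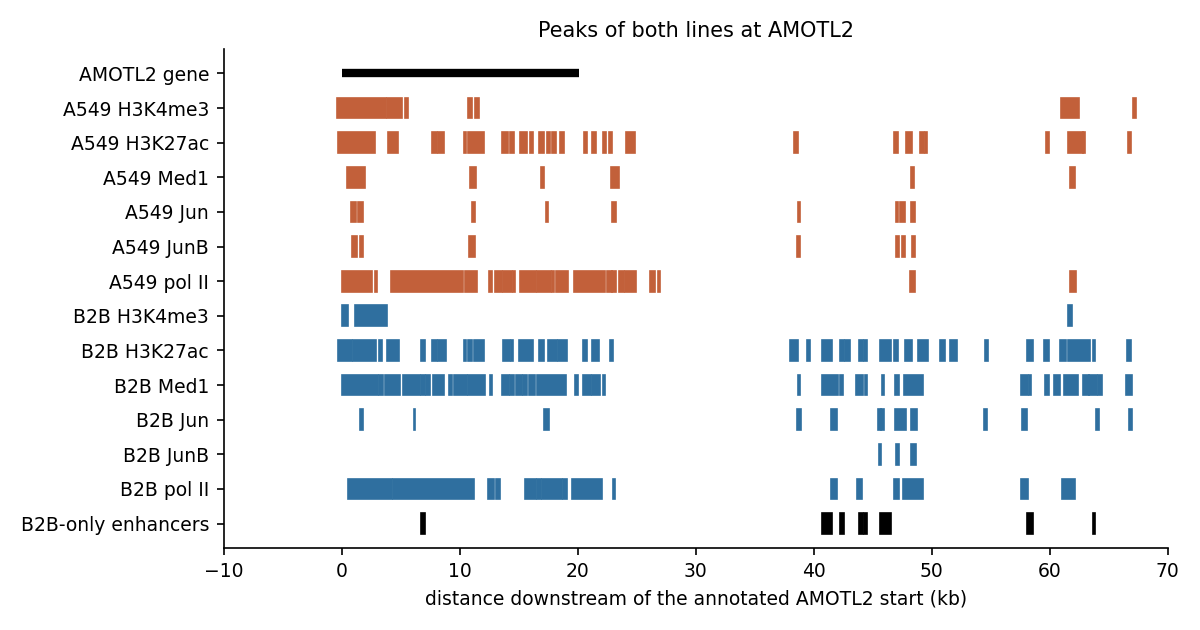
Peaks of A549 (orange) and B2B (blue) lists (rows) by distance downstream of the annotated AMOTL2 start (x axis, kb), with the B2B-only enhancers in black and the gene body on top. Between 40.7 and 63.9 kb the B2B lists hold 17 H3K27ac, 14 Med1 and 7 Jun peaks and the A549 lists 7, 2 and 3.

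At AMOTL2 the 7 grouped members lay among peaks of both lines. Their span held 17 B2B and 7 A549 H3K27ac peaks, 14 B2B and 2 A549 Med1 peaks, and 7 B2B and 3 A549 Jun peaks.

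Of the 6 members of highest H3K27ac, 2 had an A549 Jun peak and none had A549 pol II. An intronic member of PALM2AKAP2, a gene for a kinase-anchoring protein, at chr9:110116235-110116576 had a fold enrichment of 37.6, with B2B Jun at 52.7 and A549 Jun at 18.0. The intronic ARHGEF28 member (a guanine nucleotide exchange factor gene, chr5:73939300-73939771) had H3K27ac at 33.4, pol II at 26.5 and a weak Jun peak at 4.63. A member nearest to CLXN, 321 kb from its start, had H3K27ac at 32.7 and Jun at 44.2 in B2B and 11.97 in A549. The FRMD4A member at chr10:14405734-14406243 had H3K27ac at 28.9 and pol II at 44.8, with no Jun-family peak in either line. The VXN member had H3K27ac at 28.0 and Jun at 18.9, and the ATOX1 member (a copper chaperone, chr5:151741424-151741745) had 26.3 and 22.1. The nearest A549 peak of any list was 80.5 kb from the FRMD4A member and 0.244 kb from the VXN member.

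By Med1 the first places went to a pair of neighbouring members in an intron of TRPM3, a cation channel gene, at chr9:70600470-70601073 and chr9:70601285-70601964, nearest to the start of KLF9. Both overlapped the same Med1 peak of fold enrichment 61.9, with a shared Jun peak of 24.2. An intergenic member 72.8 kb from ACKR3, an atypical chemokine receptor gene, had Med1 at 34.3 and Jun at 22.9. The CDKN2B member had Med1 at 29.4, the ABCA1 intron member 26.9 without any Jun-family peak, and the DUSP5 member 24.7 with Jun at 7.73. ABCA1 exports cholesterol and DUSP5 is a phosphatase of ERK kinases.

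By summed Jun-family enrichment the first were members of CREB3L2 (a transcription factor of the endoplasmic reticulum, 93.8), CDKN2B (88.6), MPV17 (86.4), KIF18A (a mitotic kinesin, 79.4), RB1CC1 (an autophagy protein, 69.7) and UAP1 (an enzyme of hexosamine synthesis, 68.6). A549 JunB and Jun were called at CREB3L2 (10.5 and 16.1) and MPV17 (29.2 and 44.3) and at none of the other 4. Of these, the CDKN2B member lies in an A549-free stretch described below, where loss of the DNA and loss of binding cannot be told apart. The MPV17 member lay 1.43 kb from the start of its gene and 0.066 kb from an A549 H3K27ac peak, and it also had A549 pol II (13.2). Of members with no Jun-family peak in either line, the highest H3K27ac values were 28.9 at FRMD4A, 21.9 in an intron of PRR16, 20.05 near LDAH, a lipid droplet hydrolase gene, and 19.1 in an exon of ERGIC1. The TEAD letters were at the Med1 summit of the LDAH member and not of the other 3.

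Some members lay in long stretches in which A549 had no peak of any list. In all 863 members (85.7%) overlapped no A549 peak of any list, 159 (15.8%) lay in A549-free stretches of at least 100 kb and 27 (2.68%) in stretches of at least 250 kb. The rule left out members with A549 H3K27ac or Med1 peaks, so these counts are not independent of it. No share of other enhancers is given beside them. One stretch of 341 kb, chr9:21812743-22153972, covered CDKN2A and CDKN2B, genes for cell cycle inhibitors, and held 4 members and 161 B2B peaks over all lists. A549 is known to lack CDKN2A, so loss of the DNA and loss of the marks cannot be told apart there. Another of 983 kb held 4 members nearest to IRX1 and IRX2, homeobox genes, with 55 B2B peaks, and one of 786 kb held the PRR16 member.

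Promoters of the genes nearest to members were marked more often in A549 than in B2B, and so were promoters over all protein-coding genes. Of the 625 genes, 79.8% had a pol II promoter peak (within 1 kb of a start) in A549 and 65.8% in B2B, a paired difference of 14.1 points (10.6 to 17.5). Over all 12573 protein-coding genes the shares were 66.9% and 50.2%, a difference of 16.7 points. H3K4me3 was called at 85.8% and 79.4% of the 625 promoters (72.9% and 62.0% of all), JunB at 35.2% and 8.32% (27.5% and 3.29%), Jun at 40.8% and 34.6% (32.8% and 17.9%) and JunD at 18.4% and 4.32% (15.9% and 1.96%). The A549 share was the higher for each, by 6.40 points for H3K4me3 (3.94 to 8.94), 26.9 for JunB (23.2 to 30.6), 6.24 for Jun (2.12 to 10.3) and 14.1 for JunD (10.9 to 17.4). Over all genes the same differences were 10.9 points for H3K4me3, 24.2 for JunB, 14.8 for Jun and 13.9 for JunD, so the excess in A549 was present over all genes as well. With lists of equal length the JunB difference at the 625 genes was 2.88 points (0.16 to 5.65) and the Jun difference 9.60 points (5.46 to 13.7). Within 3 kb of the start the Jun difference was -3.36 points with an interval that included 0.

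Genes nearest only to members differed from genes nearest only to A549-only enhancers. B2B pol II was at 64.4% of 585 promoters of the former and 56.3% of 378 of the latter, a difference of 8.10 points (1.79 to 14.4), and B2B H3K4me3 at 79.0% and 69.0%, a difference of 9.93 points (4.27 to 15.7). A549 pol II differed the other way, by -6.30 points (-11.0 to -1.32), and A549 Jun by -15.1 points (-21.4 to -8.66). Of the genes nearest to members whose pol II call differed between lines, 23 of 134 were called in B2B alone (17.2%, 11.7 to 24.4%), against 2 of 116 for A549-only enhancers (1.72%) and 164 of 2431 over all genes (6.75%).

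Of the 625 genes, 11 had both pol II and H3K4me3 promoter peaks in B2B and neither in A549, and they were picked out after their values were seen. The share of all genes with this pattern is not given, so the 11 are a description only. Taken singly, pol II was called in B2B alone at 23 of the 625 promoters and at 164 of all 12573. For H3K4me3 these counts were 12 and 155. Among the 11 were SPARC (3 members), a matrix glycoprotein gene, THBS2 (4), for a thrombospondin, PDGFRB (1), for a growth factor receptor of mesenchymal cells, and PDLIM4 (3), for an actin-associated protein. They also included CDKN2A (1), CDKN2B (3), IRX1 (1), SCHIP1 (1), TMEM40 (2) and a gene without a symbol (2). CDKN2A, CDKN2B and IRX1 lie in the A549-free stretches described above.

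Counts in gene lists are given beside 4.97% of all protein-coding genes with a member and 3.32% with an A549-only enhancer. Of 25 YAP-TEAD targets and core genes, 7 had a member (28.0%, 18 members) and 5 had an A549-only enhancer. They included AMOTL2, CRIM1 (3 members), a BMP-binding membrane protein gene, and ANKRD1 (2), a muscle and stress response gene. Collagens had a member at 2 of 11 genes (COL5A1 with 7 and COL6A3 with 1) and an A549-only enhancer at none. The urokinase and metalloproteinase list had 3 of 11 against 1, mesenchymal genes 3 of 23 against 2, AP-1 subunits 2 of 8 (BATF3 and FOSL2) against 0, TGF-beta genes 2 of 19 against 4 and growth factor genes 4 of 25 against 6. SKI, a repressor of SMAD signalling, held 5 of the 7 TGF-beta members, 4 of them with Jun and all 5 with Rad21. PDGFA, a growth factor gene, had 3 members, all with Rad21 and none with Jun.

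No member was nearest to any of 15 NRF2 target genes, of which 11 had an A549-only enhancer, with 31 such enhancers in all. A member was nearest to 0 of 18 integrin and laminin genes, 0 of 17 alveolar and endoderm genes and 0 of 16 simple epithelial genes. It was also 0 of 17 interleukin and chemokine genes and 0 of 16 basal airway genes. In the same order, A549-only enhancers were nearest to 3, 2, 2, 1 and 0. Lists this short, the NRF2 list included, do not set a count of 0 members apart from the 4.97% of all protein-coding genes. Of the study's oncogenes, a list the authors compiled from public oncogene databases, 29 of 394 had a member (7.36%) and 28 had an A549-only enhancer (7.11%). ABL1, a tyrosine kinase gene, and EXT1, a heparan sulfate synthesis gene, had 3 members each. All 3 ABL1 members had B2B Jun, pol II and Rad21.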

How the data were processed

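ChIP-seq of 36 samples in 18 groups of 2 replicates was listed, 4 of them input chromatin, which was not analysed here. Per the submitters' processing notes and the study's methods, the authors aligned reads to hg38 with Bowtie2 2.4.4, removed duplicates, merged replicates, scaled them with SAMtools 1.13 and called peaks with MACS2 2.2.7.1. The deposited lists give for each peak a score (10 times the −log10 q-value, rounded down), a fold enrichment (a ratio to local background), −log10 p and −log10 q values, and the summit offset. Every peak had a −log10 q of about 2 or more. Read depth is not part of the lists and is unknown here. Some A549 and B2B lists ended within later chromosomes, so chromosomes 1 to 12 were used.

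An overlap was 1 bp or more. Start sites and genes were those of GENCODE 44. Shares have Wilson and differences have Newcombe 95% intervals, paired where the same enhancers or genes were scored in both lines. Motifs were read on both strands from hg38 within 100 bp of the strongest Med1 summit, with flanks 2 kb away. Named were the 6 members highest in H3K27ac, the 6 highest in Med1, the 6 highest in summed Jun-family enrichment, the 4 highest in H3K27ac without any Jun-family peak, the 8 genes with most members and list genes with at least 3. Results at some of these genes are not reported here. The members and gene lists were chosen with earlier results of these data known. Functions were tested on simulated data. Python 3.11.15, NumPy 2.4.6, SciPy 1.17.1 and pysam 0.24.0 were used. Alternatives covered thresholds, overlap, start distance, windows, list length and promoter size.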

Additional observations from a re-analysis of the deposited data

How the results depend on the processing

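Of 110 recomputed values for 24 results, 103 kept their direction and their side of 0 or, for counts, stayed within 1.5 times. The number of members ran from 801 to 1004. The Jun difference between members and shared enhancers was not distinguished from 0 as reported. It was 0.30 points with a −log10 q of at least 5 in every list, 5.51 points in equal windows and -11.1 points with an overlap of at least 50%. The CTCF difference between members and shared enhancers was -5.04 points (-10.05 to 0.07) at the stricter q and -4.28 points (-8.80 to 0.36) in equal windows. With motif windows of 50 bp on each side, 2 motifs rather than 4 had a higher share than in A549-only enhancers. The promoter difference in Jun between lines was -3.36 points (-7.49 to 0.79) with promoters of 3 kb. The causes were not tested, beyond the fewer bases searched in the smaller window. Of single motifs, ETS changed sign, to -0.23 points at the stricter q, -1.97 points with windows of 250 bp and -0.35 points with each Med1 peak counted once, and RUNX fell to 2.39 points (-0.43 to 5.03) with windows of 50 bp. The A549 minus B2B difference at members ran from -57.3 to -35.0 points for Jun, -17.2 to -8.24 for JunB, -7.37 to -2.75 for JunD and -44.1 to -34.5 for pol II. Lists of equal length for the A549-only set, the Jun comparison in the other line, single counting of Med1 peaks and the CTCF motif were added after seeing the data. No paired analysis was possible because the lists hold merged replicates, and for the same reason no replicate could be left out.

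Every list is one merged call per target and line, so differences between the lines in antibody efficiency, depth or copy number cannot be told apart from differences in binding. Intervals cover counting error over enhancers that partly share peaks. An absent peak means that none was called at the authors' threshold.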
